A study of Mus musculus with 6 samples.

Results

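Reelin is a large protein that is secreted into the extracellular space and guides where migrating neurons come to rest. It binds the receptors Vldlr and Apoer2 (gene symbol Lrp8) on the neuron, and the bound receptors cause the adaptor Dab1 inside the cell to be phosphorylated by Src family kinases. Loss of the ligand, of the adaptor or of both receptors gives mice the reeler phenotype, with cortical layers out of order and a small, poorly foliated cerebellum.

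The array labelled REELIN KO is the 1 array of the 6 in the series whose mouse lacked the ligand, and it was set against the 2 arrays of mice that lacked the adaptor (DAB1 KO) or both receptors (APOER2-VLDLR KO). All 3 are reeler models. The question was what differs when the ligand is missing and not its receptors or its adaptor. The other 3 arrays came from a wild type mouse (WT) and from mice lacking a single receptor (VLDLR KO and APOER2 KO), and they are called the non-reeler arrays here. The REELIN KO mouse came from Reeler +/- matings and the DAB1 KO mouse from Dab1 +/- matings, while the other 4 mice came from matings of Vldlr and Apoer2 double heterozygotes. All 6 mice were 21 days old, untreated, labelled male and of mixed C57BL/6 and 129 background. Each array held total RNA of 1 frontal cortical lobe from 1 mouse. Which stretch of each gene was deleted is not stated in the labels.

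There was 1 array per genotype. What came with the loss of reelin therefore cannot be told apart from what was particular to that mouse, its cross, its dissection or its array. Expression is given as MAS5 signal, a linear brightness per probe set, and differences as log2(signal + 28), which understates the change of dim genes. Of 18193 genes measured, 11499 had a probe set with a mean signal of at least 89.0, and these were compared. A gene was called 2-fold different when REELIN KO lay at least 1 log2 unit above, or below, both other models, that is, when its gap to the nearer of them reached that size. A limma test compared REELIN KO with the mean of both models. It took its error from the spread between DAB1 KO and APOER2-VLDLR KO and between the non-reeler arrays, so its p-values measure only the spread between these arrays, whose genotypes differ. In samples of whole tissue, fewer cells of a type and less RNA per cell cannot be told apart.

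The arrays were alike in overall brightness, with median signals of 86.5 to 92.3, and the brightest of 27 bacterial control probe sets read 28.4 to 39.6. Ratios of 5' to 3' signal were 1.37 to 1.43 for Gapdh and 0.688 to 0.757 for Actb, the highest Actb ratio being that of REELIN KO. Xist, which is transcribed from the inactive X chromosome of females, read 3368 to 4006 on 5 arrays, among them all 3 reeler models, and 124.9 on APOER2 KO, although the labels call every mouse male. The Y chromosome gene Eif2s3y read 367.5 on APOER2 KO and 0.6 to 7.7 on the other 5 arrays. Both genes thus read as male on APOER2 KO and as female on those 5, against their labels. The non-reeler arrays, whose spread enters limma's error, differed in this. Cortical layer genes gave signal on every array, as did genes of cerebellar granule cells. The summed signal of 18 upper layer genes was 11202 to 13319. That of 17 granule cell genes was 12116 on REELIN KO, 11348 on DAB1 KO, 11050 on APOER2-VLDLR KO and 20438 to 23742 on the non-reeler arrays.

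Reln, the gene of the ligand, read 79.9 on REELIN KO, 1547 on DAB1 KO and 1498 on APOER2-VLDLR KO, and 1669 on WT, 1880 on VLDLR KO and 1820 on APOER2 KO. Only the array labelled as lacking the ligand was low, and the other 5 lay close together. Reln was lower on REELIN KO by 14.4-fold than in the mean of both models (log2 difference -3.84, SE 0.12, adjusted p = 8.34e-06 by limma with Benjamini-Hochberg adjustment over all 11499 genes). As the gene chosen by the design, it checks the label and is no finding. The receptor gene Lrp8 read 342.4 on REELIN KO, 370.1 on DAB1 KO and 13.7 on APOER2-VLDLR KO, and 357.8, 379.8 and 4.2 on WT, VLDLR KO and APOER2 KO. Vldlr read 357.6 on REELIN KO, 482.9 on DAB1 KO and 185.6 on APOER2-VLDLR KO, and 551.6, 187.3 and 491.7 in the same order of non-reeler arrays. Both receptor genes were thus low where the label says they are deleted, and neither was as low on REELIN KO. Dab1 read 588.1 on REELIN KO, 478.5 on DAB1 KO and 516.4 on APOER2-VLDLR KO, and 573.1 to 626.0 on the non-reeler arrays. DAB1 KO was the lowest array here, though close to APOER2-VLDLR KO, and REELIN KO lay among the non-reeler arrays. The difference of REELIN KO from the mean of both models was 0.23 on the log2 scale (SE 0.13, adjusted p = 0.48 in limma). Of the other Dab1 probe sets, 1 read 102.1 on DAB1 KO and 187.8 to 217.7 on the other 5 arrays. The difference for Lrp8 was 1.52 (SE 1.63, adjusted p = 0.746) and for Vldlr 0.22 (SE 0.63, adjusted p = 0.921), and both had the opposite sign when APOER2-VLDLR KO was left out, at -0.10 and -0.41.

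The loss of the ligand was accompanied by few large differences. REELIN KO was at least 2-fold above both other models for 38 genes, 0.33% of those compared, and at least 2-fold below both for 26, 0.226%. By limma at an adjusted p of 0.05, 44 genes were higher (0.383%) and 34 lower (0.296%). Of these, 19 higher and 15 lower genes met both criteria. Before adjustment, 721 genes were higher and 937 lower at p of 0.05. Over all genes the median difference was -0.02 on the log2 scale and the median of its size was 0.16.

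REELIN KO stood farther from each other model than those stood from each other. It differed 2-fold or more from DAB1 KO for 194 genes and from APOER2-VLDLR KO for 132, while DAB1 KO and APOER2-VLDLR KO differed for 83. The SD of the differences over genes was 0.36, 0.33 and 0.27 in that order. REELIN KO also lay farthest from the mean of the non-reeler arrays, with an SD over genes of 0.35, against 0.26 for both other models. With a single array in each genotype, these are descriptions of the arrays.

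**Figure D1:**
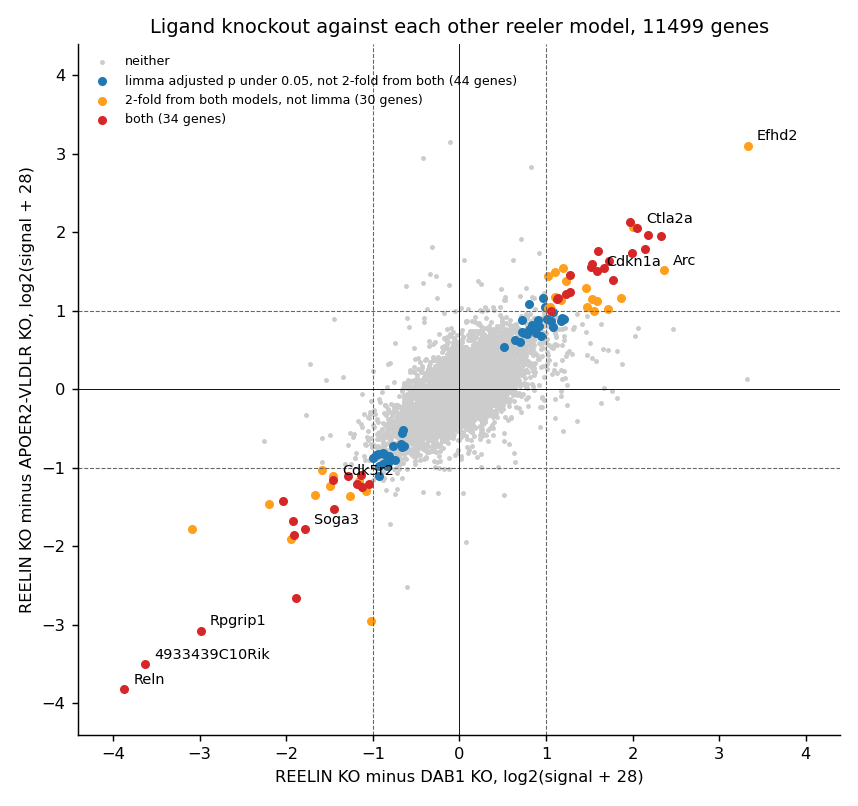
Each point is 1 of 11499 genes, placed by REELIN KO minus DAB1 KO (x axis) and REELIN KO minus APOER2-VLDLR KO (y axis) in log2(signal + 28), with dashed lines at 2-fold. The REELIN KO array enters both axes, so a slope along the diagonal is built in; coloured points are the called genes, 34 by both criteria, 30 by the 2-fold criterion alone and 44 by limma alone, with Reln lowest and Efhd2 highest.

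The number of limma calls depended on the arrays and on the processing. In place of the 78 genes called, 4 passed without DAB1 KO, 21 without APOER2-VLDLR KO, 20 without WT, 27 without APOER2 KO and 108 without VLDLR KO. With no filter on dim genes 3 passed, and with no trend in the prior 16 did. Reln, Soga3 and 4933439C10Rik were the 3 genes that passed in every one of the 13 alternatives.

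For the called genes, the non-reeler arrays mostly lay with the receptor and adaptor models. These genes were picked because REELIN KO lay far from both models. Such a choice by itself favours other arrays lying on the models' side, so the counts below describe the genes and test nothing. For 32 of the 38 genes 2-fold higher and 23 of the 26 genes 2-fold lower, all 3 non-reeler arrays were nearer to the mean of DAB1 KO and APOER2-VLDLR KO than to REELIN KO. For 0 of these 64 genes were all 3 nearer to REELIN KO. REELIN KO was the highest of all 6 arrays for 36 of the 38, the exceptions being Lsm12 and Serinc2, and the lowest for 26 of the 26. Among all genes, REELIN KO was outside the other 5 arrays for 47.3%. On an axis with 0 at the mean of both models and 1 at REELIN KO, the non-reeler mean had a median position of 0.0049 for the genes 2-fold higher and 0.10 for those 2-fold lower. The positions ran from -0.50 for Klhl40 to 0.75 for Serinc2 among the genes 2-fold higher. Among those 2-fold lower they ran from -0.14 for Soga3 to 0.45 for G530011O06Rik.

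The limma genes, whose choice also used REELIN KO, were placed in the same way. All 3 non-reeler arrays lay nearer to the other models for 43 of the 44 higher and 32 of the 34 lower genes. The exception among the higher genes was Jup, plakoglobin of desmosomes and adherens junctions, which read 504.5 on REELIN KO, 244.9 on DAB1 KO, 208.6 on APOER2-VLDLR KO, 424.3 on WT, 415.3 on VLDLR KO and 479.4 on APOER2 KO. Here DAB1 KO and APOER2-VLDLR KO stood apart from the other 4 arrays, and REELIN KO lay just above the non-reeler arrays. Jup was 2.10-fold higher on REELIN KO than in the mean of the other models (log2 difference 1.07, SE 0.16, adjusted p = 0.0406 in limma). Camk2a, the alpha subunit of a calcium-dependent kinase of excitatory synapses, read 2636 on REELIN KO, 4419 on DAB1 KO, 4938 on APOER2-VLDLR KO and 3238, 3516 and 2810 on WT, VLDLR KO and APOER2 KO. REELIN KO was the lowest array at this probe set, and WT and APOER2 KO lay nearer to it than to the pair. At the next brightest Camk2a probe set WT was lower still, at 1753 against 1845 on REELIN KO, with 2372 and 2838 on the models. Dimmer ones differed in which array was lowest. Across all genes DAB1 KO and APOER2-VLDLR KO lay together outside the other 4 arrays for 15.7%.

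**Figure D2:**
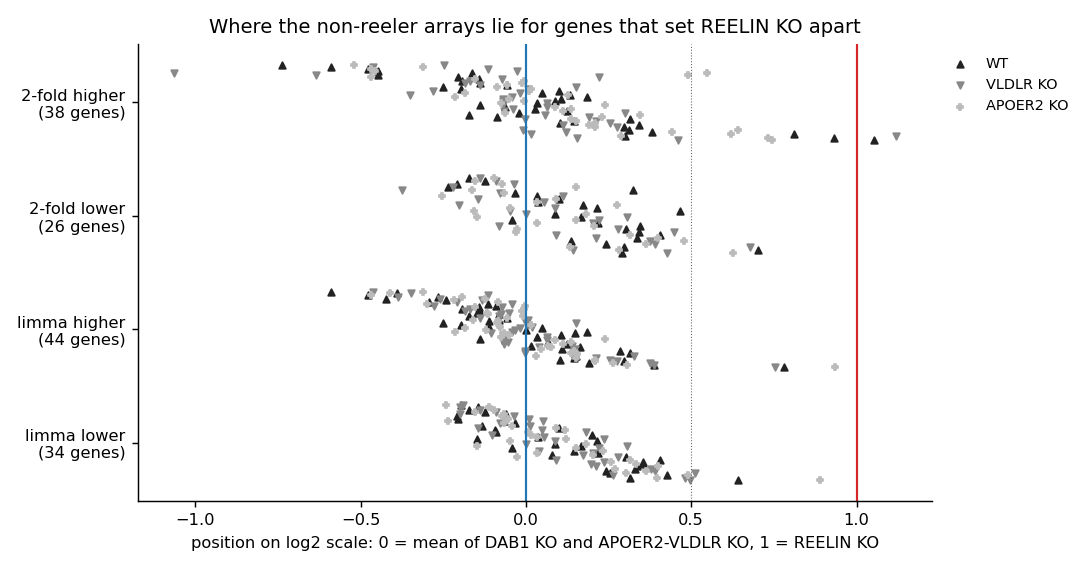
For each called gene, a triangle, inverted triangle and plus sign give the position of WT, VLDLR KO and APOER2 KO on a log2 axis where 0 is the mean of DAB1 KO and APOER2-VLDLR KO and 1 is REELIN KO; rows are the 2-fold and limma calls by direction. Most symbols sit near 0, which choosing genes by REELIN KO favours. Jup is the limma gene with all 3 symbols near 1.

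Among the genes farthest below both models after Reln, 4933439C10Rik, an unnamed transcript, read 14.7 on REELIN KO, 502.0 on DAB1 KO, 454.7 on APOER2-VLDLR KO and 414.7 to 436.7 on the non-reeler arrays. It was at background on REELIN KO and at a like level on the other 5 arrays. It was 11.8-fold lower than in the mean of both models (log2 difference -3.57, SE 0.15, adjusted p = 5.41e-05 in limma). Soga3 read 137.1 on REELIN KO, 542.3 and 538.4 on the other models and 612.6 to 674.9 on the non-reeler arrays. It too was low on REELIN KO alone, by 3.44-fold (log2 difference -1.78, SE 0.13, adjusted p = 0.00292 in limma).

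Rpgrip1, a protein of the photoreceptor connecting cilium, read 38.9 on REELIN KO, 503.2 on DAB1 KO and 535.5 on APOER2-VLDLR KO, with 262.6 on WT, 276.6 on VLDLR KO and 551.0 on APOER2 KO. The non-reeler arrays were spread, but none came near REELIN KO. Rpgrip1 was 8.18-fold lower there (SE 0.37 on the log2 scale, adjusted p = 0.024 in limma). Pdxdc1 read 47.2 on REELIN KO, 250.4 on DAB1 KO, 448.2 on APOER2-VLDLR KO and 391.6 to 435.5 on the non-reeler arrays (4.84-fold lower, adjusted p = 0.024 in limma). Its probe sets disagreed: a second one read 1117 on REELIN KO, 658.0 on DAB1 KO, 15.9 on APOER2-VLDLR KO and 13.3 to 40.7 on the non-reeler arrays. With the mean of its probe sets, the difference of Pdxdc1 was 0.01. Gm26782, Sypl2, Zfp983 and Tmem267 also passed in limma, and were 3.69-fold, 3.47-fold, 2.79-fold and 3.32-fold lower. Of these, Sypl2 encodes a relative of the synaptic vesicle protein synaptophysin. It read 21.3 on REELIN KO, below the brightest bacterial control there (32.1), so that its fold rests on a value at background, as does that of 4933439C10Rik.

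Shisa4 read 423.5 on REELIN KO against 1209 to 2133 on the other 5 arrays, 2.74-fold below the nearer model (adjusted p = 0.067 in limma). The ribonuclease angiogenin, encoded by Ang, read 33.7 against 81.9 to 168.2 (adjusted p = 0.091). C920006O11Rik (3.74-fold below the nearer model, adjusted p = 0.0524), G530011O06Rik (3.42-fold, 0.0977) and Gm19531 (2.41-fold, 0.112) did not pass in limma either, and these 3 read below the brightest bacterial control, or close to it, on REELIN KO. P2ry12, the receptor by which resting microglia sense released nucleotides, read 220.5 on REELIN KO, 674.7 on DAB1 KO, 553.5 on APOER2-VLDLR KO, 515.5 on WT, 745.3 on VLDLR KO and 464.9 on APOER2 KO. It was lowest on REELIN KO, 2.34-fold below the nearer model, with an adjusted p of 0.062 in limma.

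On the higher side, Efhd2, a calcium-binding protein of neurons and immune cells, lay farthest from both models. Efhd2 read 4735 on REELIN KO, 445.8 on DAB1 KO, 525.6 on APOER2-VLDLR KO, 4063 on WT, 696.8 on VLDLR KO and 2588 on APOER2 KO. The arrays separated into high and low ones that did not follow the classes, with REELIN KO, WT and APOER2 KO high. Its second probe set kept that order, with 3393, 2052 and 1708 on those 3 arrays against 1151 to 1224 on the rest. Efhd2 did not pass in limma (8.60-fold above the nearer model, adjusted p = 0.134). Mgp, an inhibitor of calcification made by vessel walls and fibroblasts, read 1865 on REELIN KO, 444.3 and 422.4 on the other models and 688.8, 427.1 and 1111 on WT, VLDLR KO and APOER2 KO (adjusted p = 0.0846). It was highest on REELIN KO, 4.01-fold above the nearer model, with the non-reeler arrays spread between.

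For most other genes of the higher side, REELIN KO was high and the other 5 arrays lay together. Cd44, a hyaluronan receptor, read 482.0 on REELIN KO and 87.6 to 146.3 elsewhere, 3.91-fold higher than the mean of both models (SE 0.21 on the log2 scale, adjusted p = 0.0169 in limma). Blnk, an adaptor of B cell receptor signalling also found in myeloid cells, read 689.7 against 114.9 to 208.9 (4.42-fold). Prss23, a secreted serine protease, read 768.4 against 143.4 to 193.0 (4.20-fold), and Dpm3, a subunit of the enzyme that makes dolichol phosphate mannose, read 519.7 against 73.4 to 111.3 (4.15-fold). Each of these 3 had an adjusted p of 0.0169 in limma. Ctla2a, an inhibitor of cathepsin-like proteases expressed in endothelium, read 765.3 on REELIN KO and 106.1 to 209.0 elsewhere (4.15-fold, adjusted p = 0.0381).

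Inhba, the subunit of activin A, read 589.4 on REELIN KO and 105.6 to 156.4 on the other 5 arrays (3.65-fold higher, adjusted p = 0.024 in limma). Ptgs2, the inducible cyclooxygenase of prostaglandin synthesis, read 448.8 on REELIN KO, 137.4 and 129.9 on the other models and 111.0 to 123.8 on the non-reeler arrays (2.95-fold, SE 0.18 on the log2 scale, adjusted p = 0.0196). Its second probe set read 633.2 on REELIN KO and 62.7 to 93.7 elsewhere. Both probe sets thus set REELIN KO apart. Hspb1, a small heat shock protein, read 1360 on REELIN KO and 442.7 to 639.6 elsewhere (2.90-fold, adjusted p = 0.024). Srxn1, which repairs oxidised peroxiredoxins, read 1682 against 643.3 to 765.0 (2.40-fold, adjusted p = 0.0169), and Sorcs3, a sorting receptor of neurons, 1004 against 358.5 to 415.9 (2.34-fold, adjusted p = 0.0169). Efcab6 (3.21-fold) and Fndc9 (3.05-fold) passed too, as did Zmiz1, a transcriptional coregulator, at 1.78-fold.

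**Figure D3:**
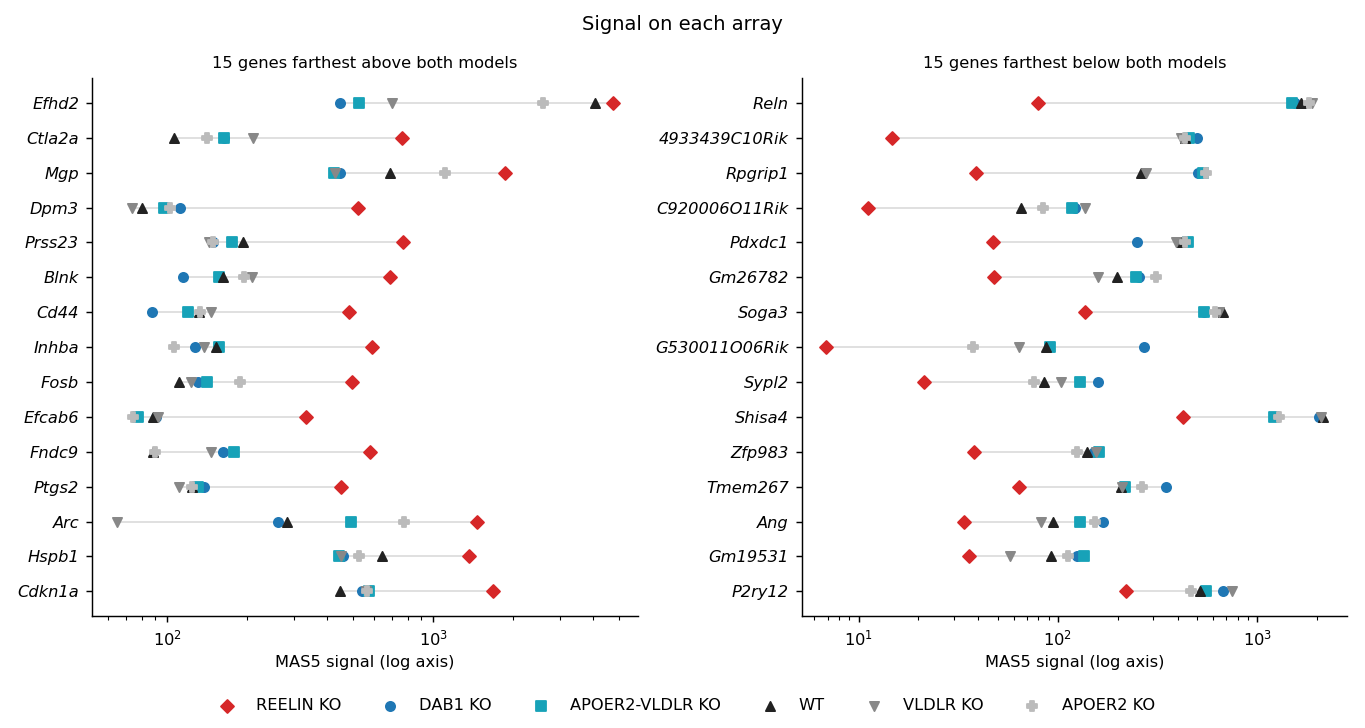
MAS5 signal on a log axis for the 15 genes farthest above (left) and the 15 farthest below (right) both other models, with 1 symbol per array: REELIN KO as a red diamond, DAB1 KO as a circle, APOER2-VLDLR KO as a square and the 3 non-reeler arrays in black and grey. The red diamond is alone at 1 end for most genes; Efhd2 is the exception with WT at 4063 and APOER2 KO at 2588.

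Further genes that passed in limma were picked out after their values were seen. Penk, the precursor of the enkephalins, read 3041 on REELIN KO and 1694 to 1848 elsewhere (1.67-fold higher, adjusted p = 0.0323). Chga and Scg2, both granins of dense-core secretory granules, were 2.07-fold and 1.44-fold higher (adjusted p = 0.0381 and 0.0463). Ddc, which makes dopamine and serotonin from their precursors, was 1.94-fold higher (adjusted p = 0.0381). On the lower side stood the neurofilament light chain gene Nefl (1.62-fold), the oligodendrocyte myelin glycoprotein gene Omg (1.78-fold) and the cholecystokinin receptor gene Cckbr (1.88-fold), with an adjusted p of 0.0381, 0.0381 and 0.041. Gpcpd1, a phosphodiesterase of glycerophosphocholine, was 1.80-fold lower (adjusted p = 0.034).

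Other probe sets of the same genes mostly ran the same way. Of the 38 genes 2-fold higher, 12 had 15 further probe sets past the signal filter, all 15 in the same direction and 13 of them also 2-fold from both models. Of the 26 genes 2-fold lower, 8 had 11 further probe sets, 9 of them in the same direction and 4 also 2-fold; Kitl and Pdxdc1 each had 1 that ran the other way. The genes just inside the 2-fold threshold were Fos, at the threshold itself, and Tgfb1i1 (2.01-fold) above both models, and Tent5c (2.03-fold) and Erdr1 (2.03-fold) below both. Those just outside it were Fkbp5 (1.99-fold) and Ifi30 (1.98-fold) above, and Aqp11 (1.99-fold) and Atg2a (1.98-fold) below.

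Within the reelin pathway, Cdk5r2 was the gene called different between ligand loss and the other models besides Reln, which the design fixed. Of 34 pathway genes compared, 7 lay above both models and 19 below both, against 33.4% and 40.2% of all genes. Over all genes 0.296% were lower by limma and 0.226% were 2-fold lower. The list's median difference was -0.10, and -0.02 over all genes. By limma 2 passed, Reln and Cdk5r2, both lower, and both were 2-fold lower as well. Cdk5r2 encodes p39, an activator of the kinase Cdk5, which acts in parallel to reelin in neuronal migration. Cdk5r2 read 605.8 on REELIN KO, 1709 on DAB1 KO, 1383 on APOER2-VLDLR KO, 1056 on WT, 1412 on VLDLR KO and 1151 on APOER2 KO. REELIN KO was the lowest of the 6, below the whole range of the others, by 2.47-fold against the mean of both models (log2 difference -1.30, SE 0.19, adjusted p = 0.0381 in limma). A second Cdk5r2 probe set read 11.7 on REELIN KO and 83.0 to 131.7 elsewhere.

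The next lowest pathway genes were Dcx (log2 difference -0.71, adjusted p = 0.354 in limma), a microtubule protein of migrating neurons, and Limk1 (-0.44, 0.248), the kinase that phosphorylates cofilin. Neither passed. Dcx read 187.6 on REELIN KO, 436.5 on DAB1 KO and 240.6 on APOER2-VLDLR KO, and 214.2 to 296.8 on the non-reeler arrays, so that DAB1 KO was highest. A second Dcx probe set read 193.5 on REELIN KO, 324.3 on DAB1 KO, 302.6 on APOER2-VLDLR KO and 222.1 to 270.4 on the non-reeler arrays, with both models high. REELIN KO was the lowest array at both, the 2 Dcx probe sets past the filter. After Lrp8, whose level follows its own deletion, the highest were Src (log2 difference 0.41, adjusted p = 0.189), a kinase of Dab1, Pik3r1 (0.33, 0.354), a subunit of phosphoinositide 3-kinase, and Itga3 (0.26, 0.48), an integrin subunit. Src read 759.4 on REELIN KO, 573.6 and 551.8 on the other models and 490.7 to 519.4 on the non-reeler arrays, and was highest on REELIN KO.

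Immediate early genes, which neurons transcribe within minutes of being active, were mostly higher on REELIN KO. Of 28 genes compared, 21 lay above both other models and 4 below both, and REELIN KO was the highest of all 6 arrays for 16. Over all genes the shares were 33.4% above both, 40.2% below both and 22.1% highest of 6. The median difference of the list was 0.64, against -0.02 over all genes. By limma 2 passed, Fosb and Rgs2, both higher (12 higher and 2 lower at an unadjusted p of 0.05); 4 were 2-fold higher (Arc, Fosb, Nptx2 and Fos) and 0 were 2-fold lower. Over all genes, 0.383% were higher by limma and 0.33% were 2-fold higher. Against the mean of the non-reeler arrays, the list's median was 0.68 on REELIN KO, -0.04 on DAB1 KO and 0.13 on APOER2-VLDLR KO. That mean hides a spread. The list's median log2(signal + 28) was 9.33 on REELIN KO, 8.55 on DAB1 KO and 8.97 on APOER2-VLDLR KO. It was 8.52 on WT, 8.66 on VLDLR KO and 9.20 on APOER2 KO. APOER2 KO thus lay above both other reeler models for the list, near REELIN KO.

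Fosb, a partner of Jun proteins in the AP-1 transcription factor, read 496.2 on REELIN KO, 129.8 on DAB1 KO, 141.1 on APOER2-VLDLR KO, 110.8 on WT, 122.7 on VLDLR KO and 187.7 on APOER2 KO. It was high on REELIN KO alone, by 3.21-fold over the mean of both models (log2 difference 1.68, SE 0.27, adjusted p = 0.0457 in limma). Rgs2, which shortens signalling through G proteins, read 1390 on REELIN KO, 830.0 and 739.8 on the other models and 626.2 to 701.2 on the non-reeler arrays. Its groups did not overlap either (1.75-fold, SE 0.13 on the log2 scale, adjusted p = 0.0457).

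Arc, a synaptic protein that removes AMPA receptors, read 1455 on REELIN KO, 260.2 on DAB1 KO, 489.9 on APOER2-VLDLR KO, 282.4 on WT, 64.4 on VLDLR KO and 778.9 on APOER2 KO. It was highest on REELIN KO, but the non-reeler arrays alone spanned more than the gap of 2.86-fold to the nearer model (adjusted p = 0.435 in limma). Fos read 1998 on REELIN KO, 662.7 on DAB1 KO, 984.1 on APOER2-VLDLR KO, 535.0 on WT, 449.0 on VLDLR KO and 1262 on APOER2 KO (adjusted p = 0.307). APOER2 KO thus lay above both reeler models without reelin's receptors or adaptor. Nptx2, a secreted pentraxin that clusters AMPA receptors, read 1149 on REELIN KO, 364.6 and 511.3 on the other models and 268.7 to 538.1 on the non-reeler arrays (adjusted p = 0.14). A second Nptx2 probe set past the filter read 172.2 on REELIN KO, 89.8 on DAB1 KO, 181.2 on APOER2-VLDLR KO and 111.6 to 167.0 on the non-reeler arrays. There REELIN KO was not above both models. The lowest members of the list did not pass: Nr4a2 at -0.62, Nr4a3 at -0.49 and Homer1 at -0.30, which with the mean of its probe sets was 0.20.

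The promoters of Fos, Fosb and Rgs2 are shown because they hold a motif of activity-induced genes; they were chosen after the search, which also covered the glucocorticoid targets Cdkn1a and Plin4. Each line gives the 250 bases before the transcription start, from RefSeq's table for mouse build GRCm38.p6, read 5' to 3' on the gene's strand. Fos lies on the plus strand at chr12:85473640-85473889, Fosb on the minus strand at chr7:19310046-19310295, and Rgs2 on the minus strand at chr1:144004150-144004399. Capitals mark TGACG, the core of the cyclic AMP response element that the activity-regulated factor CREB binds, or its reverse complement CGTCA.
Fos: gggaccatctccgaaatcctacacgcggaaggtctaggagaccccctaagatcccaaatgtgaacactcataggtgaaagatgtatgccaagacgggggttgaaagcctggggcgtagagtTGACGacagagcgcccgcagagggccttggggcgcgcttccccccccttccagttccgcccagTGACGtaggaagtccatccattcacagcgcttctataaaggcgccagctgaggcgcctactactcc
Fosb: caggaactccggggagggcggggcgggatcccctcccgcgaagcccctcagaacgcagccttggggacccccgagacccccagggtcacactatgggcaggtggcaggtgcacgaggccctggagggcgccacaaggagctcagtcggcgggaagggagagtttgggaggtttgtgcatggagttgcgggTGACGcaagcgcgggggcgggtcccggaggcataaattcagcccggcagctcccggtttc
Rgs2: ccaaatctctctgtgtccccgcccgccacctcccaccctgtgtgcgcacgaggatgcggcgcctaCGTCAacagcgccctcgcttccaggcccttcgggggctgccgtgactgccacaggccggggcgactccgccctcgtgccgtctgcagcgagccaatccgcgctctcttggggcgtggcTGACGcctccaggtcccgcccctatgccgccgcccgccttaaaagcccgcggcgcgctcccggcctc
TGACG, searched on both strands, begins 129 and 66 bases before the start of Fos, 60 before that of Fosb and 67 before that of Rgs2, where a further copy on the other strand lies at 185. It occurs in 17.8% of 32851 promoters of this length. The whole element TGACGTCA, which contains TGACG, occurs in 1.55% and is in none of the 3 windows. Neither string was found in the 250 bases before the start of Plin4 or before the 2 starts of Cdkn1a. TGTTCT, part of the glucocorticoid receptor's element, was searched for on both strands too; it occurs in 16.1% of promoters and was not in these 3 windows, which says only that the letters are not there. The table had no entry for Arc and Nptx2.

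Glucocorticoid target genes, induced when the stress hormone binds its receptor, were also mostly higher. Of 27 compared, 19 lay above both models and 2 below both, and REELIN KO was highest of all 6 arrays for 18 and lowest for 0. Over all genes 33.4% lay above both, 40.2% below both, 22.1% were highest on REELIN KO and 25.2% lowest. The median difference was 0.33. By limma 2 were higher, and the same 2, Plin4 and Cdkn1a, were 2-fold higher (10 higher and 0 lower at an unadjusted p of 0.05), against 0.383% and 0.33% of all genes. Against the non-reeler mean the list's median was 0.55 on REELIN KO, 0.10 on DAB1 KO and 0.28 on APOER2-VLDLR KO.

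Plin4, a coat protein of lipid droplets, read 537.1 on REELIN KO, 137.6 on DAB1 KO, 186.3 on APOER2-VLDLR KO, 70.6 on WT, 85.3 on VLDLR KO and 105.6 on APOER2 KO. The order ran from the non-reeler arrays through both models to REELIN KO with no overlap, and REELIN KO was 3.00-fold above the mean of the models (log2 difference 1.58, SE 0.25, adjusted p = 0.0457 in limma). Cdkn1a, the cell cycle inhibitor p21, read 1681 on REELIN KO, 538.2 and 575.1 on the models and 445.6 to 565.5 on the non-reeler arrays (2.92-fold, SE 0.16, adjusted p = 0.0169). It was high on REELIN KO alone, and its second probe set read 772.5 there and 246.6 to 297.2 elsewhere. Fkbp5, a chaperone that damps the glucocorticoid receptor, read 1986 on REELIN KO, 985.9 on DAB1 KO, 870.8 on APOER2-VLDLR KO, 517.7 on WT, 489.3 on VLDLR KO and 668.9 on APOER2 KO. Its 3 classes did not overlap, but it did not pass (1.99-fold above the nearer model, adjusted p = 0.0523). The lowest member, Angptl4, read 129.9, 136.1 and 156.2 on the 3 reeler models and 57.2 to 88.1 on the non-reeler arrays, so that REELIN KO did not stand apart from the other models.

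**Figure D4:**
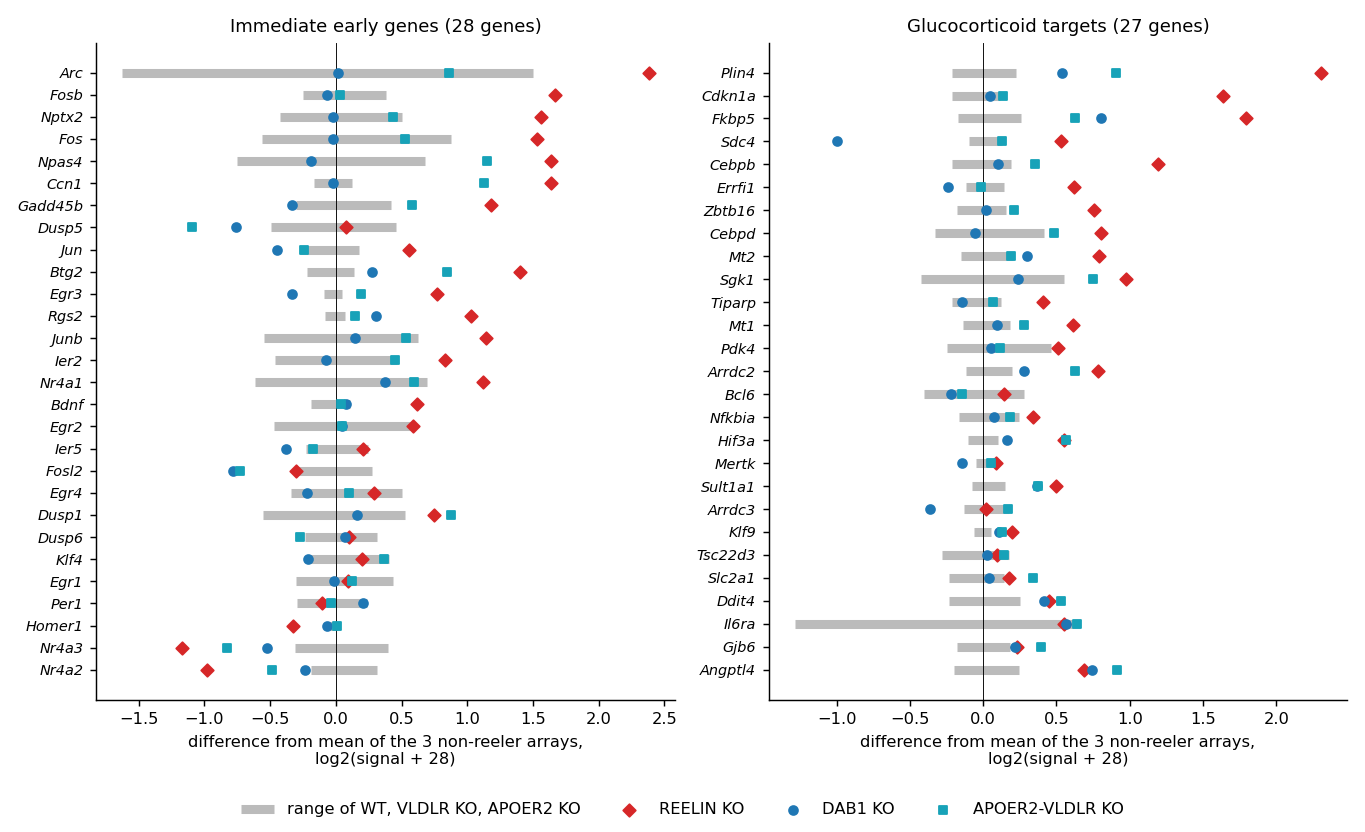
Difference of each reeler model from the mean of the 3 non-reeler arrays in log2(signal + 28), for 28 immediate early genes (left) and 27 glucocorticoid targets (right), ordered by REELIN KO minus the mean of both models; grey bars span WT, VLDLR KO and APOER2 KO. REELIN KO (diamonds) is right of both models for 21 and 19 genes, and the grey bar of Arc is the widest on the left.

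Myelin genes, transcribed by mature oligodendrocytes, lay lower as a list, though 1 alone passed. Of 22 genes, 16 were below both models and 1 above both, REELIN KO was the lowest of 6 arrays for 13, and the median was -0.27. Over all genes 40.2% lay below both, 33.4% above both and 25.2% were lowest on REELIN KO, and 0.296% were lower by limma. The list's median was -0.09 against DAB1 KO and -0.35 against APOER2-VLDLR KO. Its summed signal was 42327 on REELIN KO, 46113 on DAB1 KO and 51901 on APOER2-VLDLR KO. On WT, VLDLR KO and APOER2 KO the sums were 50349, 41693 and 47599, so that VLDLR KO lay below REELIN KO. Pllp, the myelin proteolipid plasmolipin, read 630.5 on REELIN KO, 1334 on DAB1 KO, 1495 on APOER2-VLDLR KO and 1033 to 1163 on the non-reeler arrays. REELIN KO was below all the others and both models were above the non-reeler arrays (2.19-fold lower, SE 0.13, adjusted p = 0.0176 in limma). Ugt8a, which makes myelin galactolipid, read 1297 on REELIN KO, 3700 on DAB1 KO, 1959 on APOER2-VLDLR KO and 2487 to 2744 on the non-reeler arrays (adjusted p = 0.172). The third lowest member was Ermn (-0.60, adjusted p = 0.353) and the highest Cldn11 (0.23, 0.528), a tight junction protein of myelin.

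Genes of the upper cortical layers had a median of -0.30 over 18 genes, with 12 below both models and 2 above both. Over all genes 40.2% lay below both and 33.4% above both. By limma 0.296% of all genes were lower and 0.383% higher, and 0.226% and 0.33% were 2-fold lower and higher. The list's summed signal was 11202 on REELIN KO, 13319 on DAB1 KO, 12645 on APOER2-VLDLR KO and 11244 to 12973 on the non-reeler arrays. WT, at 11244, thus lay near REELIN KO for the list as a whole. By limma 1 was lower and 1 higher, and the same genes were 2-fold different. The lower one was Kitl, the ligand of the receptor kinase Kit, which read 386.3 on REELIN KO, 986.4 and 860.4 on the models and 950.2 to 1102 on the non-reeler arrays (2.29-fold lower, SE 0.14, adjusted p = 0.0215). The higher one was Inhba, given above. Among 3 further Kitl probe sets past the filter, the brightest read 264.0 on REELIN KO and 545.1 to 651.0 elsewhere, and 1 read 173.1 on REELIN KO and 160.3 to 216.9 elsewhere. Next lowest were the transcription factor genes Pou3f2 (-0.72, adjusted p = 0.186) and Lmo4 (-0.57, 0.194), and second highest was Cux2 (0.66, 0.149). Lmo4 read 744.1 on REELIN KO and 1120 on both models, but 775.5 to 1042 on the non-reeler arrays, so that WT and APOER2 KO lay near REELIN KO.

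The 25 genes of deep layers and the subplate had a median of -0.18, with 17 below and 6 above both models (40.2% and 33.4% of all genes), and 0 passed in limma or at 2-fold (3 higher and 5 lower at an unadjusted p of 0.05). Their lowest members were Nr4a2 (-0.62), Rprm (-0.59) and Crym (-0.57), and their highest Ccn2 (0.89), Ntsr1 (0.86) and Syt6 (0.67), with an adjusted p of 0.159 to 0.338 for these 6. Ccn2, a subplate marker, read 1002 on REELIN KO, 526.8 and 526.7 on the models and 351.0 to 574.1 on the non-reeler arrays. Rprm, a marker of corticothalamic cells, read 1064 on REELIN KO, 1806 and 1441 on the models and 1058 on WT, and so did not set REELIN KO apart from WT.

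Of 26 interneuron genes, 11 lay above and 10 below both models, with a median of 0.08. Over all genes 33.4% lay above both and 40.2% below both, and 0.296% were lower and 0.383% higher by limma. REELIN KO was the highest of the 6 arrays for 10 of the list's genes and the lowest for 5. Over all genes these shares were 22.1% and 25.2%. By limma 2 were lower, Reln itself and Lamp5, and 0 higher (4 higher and 4 lower at an unadjusted p of 0.05). Lamp5, a vesicle protein that marks neurogliaform cells, a class of cortical interneurons that includes many reelin-expressing cells, read 800.2 on REELIN KO, 1542 on DAB1 KO, 1607 on APOER2-VLDLR KO and 1453 to 1677 on the non-reeler arrays. It was low on REELIN KO alone (1.93-fold, log2 difference -0.95, SE 0.12, adjusted p = 0.024 in limma). The neuropeptide genes Crh and Npy were at -0.56 and 0.53 (adjusted p = 0.34 and 0.238). Npy read 2866 on REELIN KO, 2192 and 1787 on the models and 1320 to 1763 on the non-reeler arrays.

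The median of the cerebellar granule cell genes differed little between the ligand knockout and the mean of the other models. Of 17 genes, 6 were above and 5 below both models, the median was 0.03, and 0 passed in limma or at 2-fold (3 higher and 3 lower at an unadjusted p of 0.05). Of all genes, 33.4% lay above both and 40.2% below both. By limma 0.383% of all genes were higher and 0.296% lower, and 0.33% and 0.226% were 2-fold higher and lower. Few or no calls would fall among 17 genes at such shares. Against the non-reeler mean the median was -1.36 on REELIN KO, -1.14 on DAB1 KO and -1.15 on APOER2-VLDLR KO. Fat2, a protocadherin of granule cells, read 93.3 on REELIN KO, 36.4 on DAB1 KO, 8.4 on APOER2-VLDLR KO and 549.1 to 642.5 on the non-reeler arrays (log2 difference 1.33, adjusted p = 0.112). All 3 reeler models were low, REELIN KO the least so. The same order held for Cbln3 (286.4, 191.4 and 114.5 on the 3 models) and Gabra6 (251.5, 185.7 and 106.6). The lowest members were Gabrd (-0.69, adjusted p = 0.0527) and Cadps2 (-0.61, 0.126), for which REELIN KO was below both other models.

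**Figure D5:**
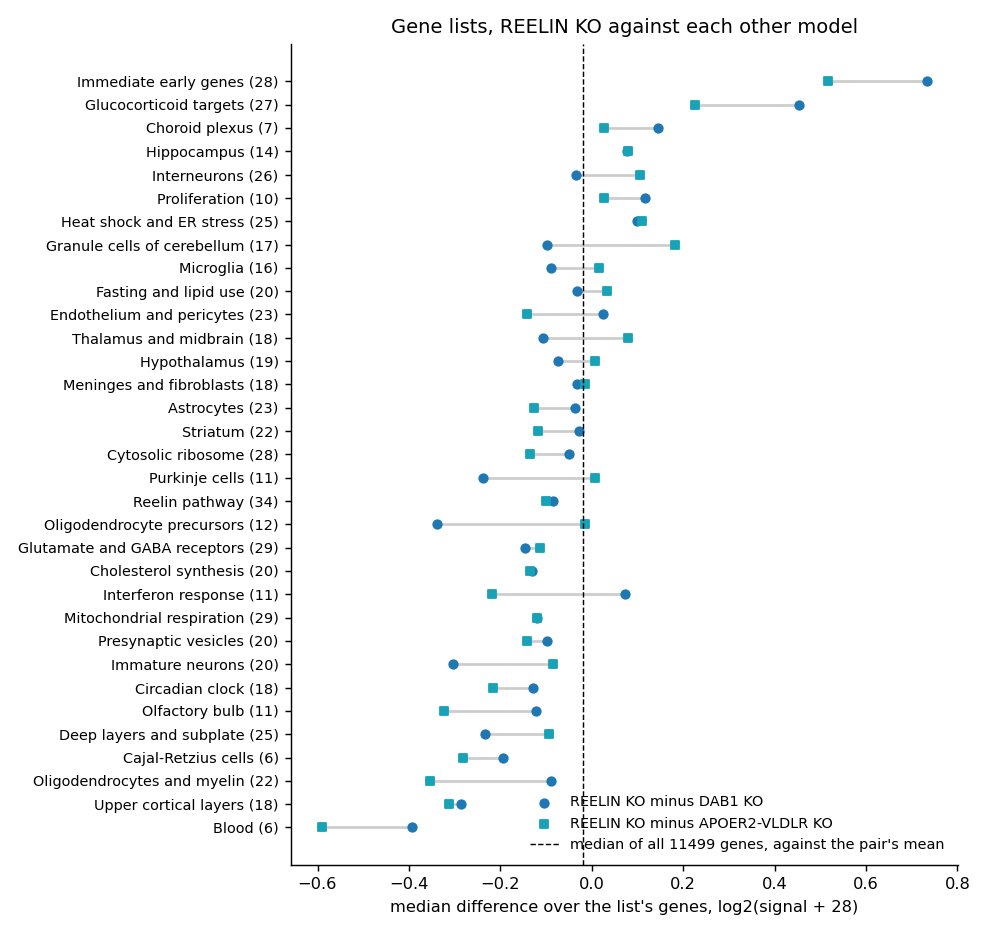
Median over the genes of each list (number of genes in brackets) of REELIN KO minus DAB1 KO (circles) and REELIN KO minus APOER2-VLDLR KO (squares) in log2(signal + 28), for lists with at least 6 genes; the dashed line is the median of all genes, -0.02. Immediate early genes and glucocorticoid targets lie farthest right against both models, and blood genes, with 6 members, farthest left.

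The other cell types that a lobe holds were set beside these results. Of all genes, 33.4% lay above both models, 40.2% below both, and 0.33% were 2-fold higher. Microglia genes had a median of 0.0087 over 16 genes, with 4 above and 5 below both models. Besides P2ry12 the next lowest member was Csf1r, the receptor of colony stimulating factor, at -0.39 (adjusted p = 0.198 in limma). The microglial gene C1qa ran the other way, at 0.31. It read 948.8 on REELIN KO, 766.3 and 750.7 on the models and 631.4 to 736.8 on the non-reeler arrays. Endothelium and pericyte genes had a median of -0.01 over 23 genes, with Ctla2a and the smooth muscle gene Tagln 2-fold higher. Tagln read 251.4 on REELIN KO and 48.4 to 96.5 elsewhere (adjusted p = 0.0801), while the endothelial genes Itm2a and Abcb1a were at -0.77 and -0.57 (adjusted p = 0.0523 and 0.233). Blood genes had a median of -0.56 over 6 genes, with 4 below and 2 above both models, and of 0.04 with no filter on dim genes. Their summed signal was 1974 on REELIN KO, 2191 on DAB1 KO, 3155 on APOER2-VLDLR KO and 2068 to 2372 on the non-reeler arrays. The erythroid gene Alas2 read 125.3 on REELIN KO, 205.9 on DAB1 KO and 848.1 on APOER2-VLDLR KO, so that the last was the array apart. The part that blood had in any result was not tested.

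The 25 genes on each side of Reln, Dab1, Lrp8 and Vldlr were listed as well. None of these neighbours was 2-fold different. Of all genes, 0.33% were 2-fold higher and 0.226% 2-fold lower, and by limma 0.383% were higher and 0.296% lower. At such shares few or no calls would fall among the 50 neighbours of a gene. The median size of their differences was 0.15 around Reln, 0.20 around Dab1, 0.15 around Lrp8 and 0.16 around Vldlr, against 0.16 over all genes. By limma 1 neighbour of Reln was lower, Fam126a, which read 220.8 on REELIN KO, 447.6 and 412.3 on the models and 313.3 to 349.9 on the non-reeler arrays (1.84-fold, adjusted p = 0.0491). By limma 1 gene near both Dab1 and Lrp8 was higher, Ssbp3, which read 1861 on REELIN KO, 813.0 and 1006 on the models and 902.3 to 1111 on the non-reeler arrays (2.03-fold, adjusted p = 0.0457). Neighbours came from gene order in RefSeq's table.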

How the data were processed

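Gene expression was measured on 6 arrays, 1 per genotype. The deposited intensity values are linear MAS5 signals made with Affymetrix Expression Console, per the submitters' processing notes; tool versions and the annotation build: not given in the sources used here. Of 45101 probe sets, 34958 named 1 gene, 932 several and the rest none; RefSeq's table matched 34754. Each gene took its brightest probe set (those ending in _x_at last) if its mean signal reached 89.0, the median of the probe sets' mean signals. Differences are of log2(signal + 28). REELIN KO was compared with DAB1 KO and APOER2-VLDLR KO by limma 3.58.1 in R 4.3.3 (3 classes, 3 residual degrees of freedom, trended prior, Benjamini-Hochberg over 11499 genes). On simulated data of 11499 genes it recovered 41.5% of 200 genes changed 2-fold and 89.5% changed 4-fold, with 5 and 7 false calls. The simulation gave each gene the same spread of independent noise on all 6 arrays, REELIN KO included. With 1 array the spread of the real REELIN KO class is unknown, so these rates need not hold for the real arrays. The number of arrays limits the precision.

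Genes named are Reln and the 4 highest and 4 lowest pathway genes, the 15 farthest on each side of both models, the 10 with the lowest limma p in each direction, and extreme members of each list described; others were chosen after their values were seen. The members and lists were chosen with earlier results of these data known. Alternatives were other pseudocounts, filters, normalization, probe set rules and priors, and leaving out each array.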

Additional observations from a re-analysis of the deposited data

How the results depend on the processing

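No paired analysis was possible because the labels give no replicate numbers and each genotype has 1 array. Genes 2-fold higher and lower numbered 38 and 26, but 54 and 43 with a pseudocount of 1, 20 and 11 with the median as pseudocount, 71 and 64 with no filter, and 10 and 12 with a stricter filter. Leaving out DAB1 KO or APOER2-VLDLR KO, which leaves a single model to differ from, gave 81 to 127 higher and 51 to 67 lower. The limma counts were 44 higher and 34 lower, but 0 and 3 with no filter (968 and 1118 at an unadjusted p of 0.05), 28 and 23 after quantile normalization, and 11 and 5 without a trended prior. Leaving out each array in turn gave 0 to 59 higher and 4 to 49 lower; the 0 came without DAB1 KO, where 564 were higher at an unadjusted p of 0.05. A lone array in a class was there assumed to vary like the others.

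Of 104 named genes, 100 kept their sign in every alternative run. The exceptions were Pdxdc1 (0.0074) and Homer1 (0.20) with the mean of all probe sets, and Lrp8 (-0.10) and Vldlr (-0.41) without APOER2-VLDLR KO, against 3.15 and 0.85 without DAB1 KO. Among the genes called by limma, Reln, Soga3 and 4933439C10Rik passed in all 13 alternatives, and no other gene did. The medians of immediate early genes (0.52 to 0.73) and of glucocorticoid targets (0.23 to 0.45) stayed above 0 in the alternatives run, and that of myelin genes (-0.35 to -0.09) below 0. The causes were not tested.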

Other observations

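Several further gene groups were compared between REELIN KO and the other models. Of all genes, 40.2% lay below both models and 33.4% above both, and by limma 0.383% were higher and 0.296% lower. Of 18 circadian clock genes, 10 lay below both models and 4 above both, with a median log2 difference of -0.16, and 0 passed in limma (1 higher and 4 lower at an unadjusted p of 0.05). The output gene Dbp, a transcription factor whose level swings widely over the day, read 487.2 on REELIN KO, 852.4 on DAB1 KO, 1108 on APOER2-VLDLR KO and 990.8 to 1267 on the non-reeler arrays (adjusted p = 0.0726). REELIN KO was the lowest of the 6 for Dbp. Its relative Hlf was at -0.65 and Ciart at -0.79, while Nfil3, which represses the same sites, was at 0.65. No time of day at which tissue was taken stands in the labels.

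Hippocampal genes had a median of 0.09 over 14 genes, with 8 above and 3 below both models. For this list and those that follow, the shares of all genes were 33.4% above both and 40.2% below both. Wfs1, a protein of the endoplasmic reticulum that marks pyramidal cells of field CA1, read 3174 on REELIN KO, 1247 on DAB1 KO, 1814 on APOER2-VLDLR KO and 1301 to 1315 on the non-reeler arrays. It was highest on REELIN KO but did not pass in limma (2.09-fold, adjusted p = 0.0529). Dkk3, a secreted glycoprotein, was at 0.75 (adjusted p = 0.0607), and Ociad2 passed at 0.73 (adjusted p = 0.0487). Among 29 genes of mitochondrial respiration, 21 lay below both models and 3 above both, with a median of -0.15, and among 28 cytosolic ribosomal protein genes 18 lay below and 3 above, with a median of -0.09. In neither list did a gene pass in limma (0 higher and 5 lower, and 0 higher and 4 lower, at an unadjusted p of 0.05), and the medians were -0.07 and -0.01 with quantile normalization.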
